A study of Mus musculus and Homo sapiens with 17 samples.

Results

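Squamous cell carcinomas (SCC) from mice labelled as lacking Dusp1 were compared with treated wild-type skin, across all named genes of the mouse count table. The members of the comparison are the libraries whose labels give these groups, 2 carcinomas labelled KO and 3 wild-type (WT) skin samples, 5 of the 17 libraries of the series. Both groups were C57BL/6-129 mice that had received DMBA, a chemical that mutates DNA, and TPA, a phorbol ester that drives epidermal growth, so the skin is treated skin and not an untouched control. One group is wild-type skin; the other is SCC that arose in mice with the genotype label DUSP1KO. The carcinomas therefore differ from the skin both in lesion and in genotype label, and the parts of these factors in any difference cannot be told apart. The labels give neither age nor the way in which the allele was made. Whether each library stands for its own animal is not said, and the p-values therefore rest on the spread among these 5 libraries and the 6 other mouse libraries, which may be technical. Of the other mouse libraries, 3 WT SCC and 3 papillomas labelled KO entered the same model and are given side by side where stated.

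The labelled cell type is keratinocytes, but RNA was taken from whole frozen sections. All cells of a section therefore entered it, and the skin libraries held RNA of muscle, fat, glands, nerve and immune cells, as described with those genes. In bulk RNA of this kind, fewer cells of a type and less RNA per cell cannot be told apart.

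The epidermis is renewed from a basal layer of keratinocytes held to the basement membrane, which divide, move upward and build a cornified envelope of crosslinked proteins. In the DMBA and TPA protocol, mutated keratinocytes, typically with an active Ras gene, grow into papillomas, some of which become invasive SCC. Ras signals through the kinase ERK to transcription factors such as the AP-1 family (dimers of Fos and Jun proteins). DUSP1 is a nuclear phosphatase that removes phosphate from the MAP kinases p38, JNK and ERK and is itself induced by stress and growth signals.

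The libraries held between 34378300 and 47883625 counts. Within groups, log2 values correlated at 0.896 to 0.956 between skin libraries and at 0.977 between the carcinomas, across genes. Skin replicate 3 stood apart from skin replicate 1 on the second principal component, and the collagen and hair follicle genes, given with those results, separated the same libraries. Counts of 4 Y-linked genes were 6624, 9552 and 7 in the skin and 0 and 4779 in the carcinomas. Both groups therefore mixed libraries with and without such counts. Every WT SCC and papilloma library had 0, so the tests against those groups are not balanced for Y-linked counts. KO SCC replicate 2 had Y-linked counts together with 15.3 CPM (counts per 1000000 of the scaled library size) of Xist. Xist is the RNA of the inactive X chromosome. Whether that library, 1 of the 2 carcinomas, holds RNA of more than 1 animal was not tested. The biological coefficient of variation over all mouse libraries was 36.6%. Keratin genes took 2.52% to 3.39% of all counts in the skin and 9.61% and 9.98% in the carcinomas.

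Dusp1 (chromosome 17, 26505590 to 26562128, minus strand, mm10), the gene named in the genotype label, was not lower in the carcinomas labelled KO. It stood at 94.1, 109 and 52.3 CPM in the skin and at 139 and 174 CPM in the carcinomas, and both carcinomas lay above every skin library. The log2 fold change was 0.88 ± 0.25 (SE), with an adjusted p of 0.015 by edgeR's quasi-likelihood test. Leaving the WT SCC and papilloma libraries out of the model gave an adjusted p of 0.053. Without KO SCC replicate 2 the log2 fold change was 0.71 with an adjusted p of 0.11, and with total counts as library sizes 0.37 with an adjusted p of 0.26. A count per gene cannot show whether these transcripts encode a working protein. The group is called carcinomas labelled KO for this reason.

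A large share of the transcriptome differed between the carcinomas and the skin. Of 22371 genes tested, 10013 (44.8%) passed an adjusted p of 0.05, of which 4588 (20.5% of those tested) rose and 5425 (24.3%) fell. At least 2-fold rises numbered 2361 (10.6%) and at least 2-fold falls 4358 (19.5%). The median log2 fold change over all tested genes was -0.30. With total counts as library sizes the median moved to -0.81, and the share of rises among the calls went from 45.8% to 19.0%. Over all tested genes, both carcinomas lay above every skin library in CPM for 28.3% and below for 36.3%. Among the genes that are named here as risen or fallen with their values in each library, Col1a1 and Krt71 alone had skin and carcinoma values that overlapped. Without KO SCC replicate 1 fewer genes were called, and the median log2 fold change over the genes tested was -0.41. The skin libraries had normalization factors of 1.178 to 1.244 and the carcinomas 0.816 and 0.872, and the 20 most abundant genes took 8.76% to 12% of counts in the skin and 18.4% and 18.5% in the carcinomas.

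Gene lists moved in very different directions around that median, as the plot of all lists shows. The medians ranged from -10.94 for skeletal muscle to 3.63 for wound and hyperproliferation genes. Of 644 list members 631 were tested; the others were Krt85 and, for low counts, Tnnc2, Mmp7, Erbb4, Hes5, Ccl19, Gzmk, Ms4a1, Ly6g, Mmrn1, Pmp2, Nefl and Nefm. Lists are described by how many members rose or fell and by their median, to be read beside the 20.5%, 24.3% and -0.30 of all genes. For 6 lists the median changed sign under at least 1 alternative setting, as stated where they appear. With only skin and these carcinomas in the model, falls went from 16 to 6 for hair follicle, 4 to 1 for collagen and 9 to 5 for matricellular genes. They went from 9 to 4 for lymphocyte chemokines, 7 to 3 for melanocyte and 8 to 3 for TGF-beta genes. Rises of mitochondrially encoded genes went from 8 to 4. Some counts grew, such as that of interferon falls, from 11 to 13.

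**Figure D1:**
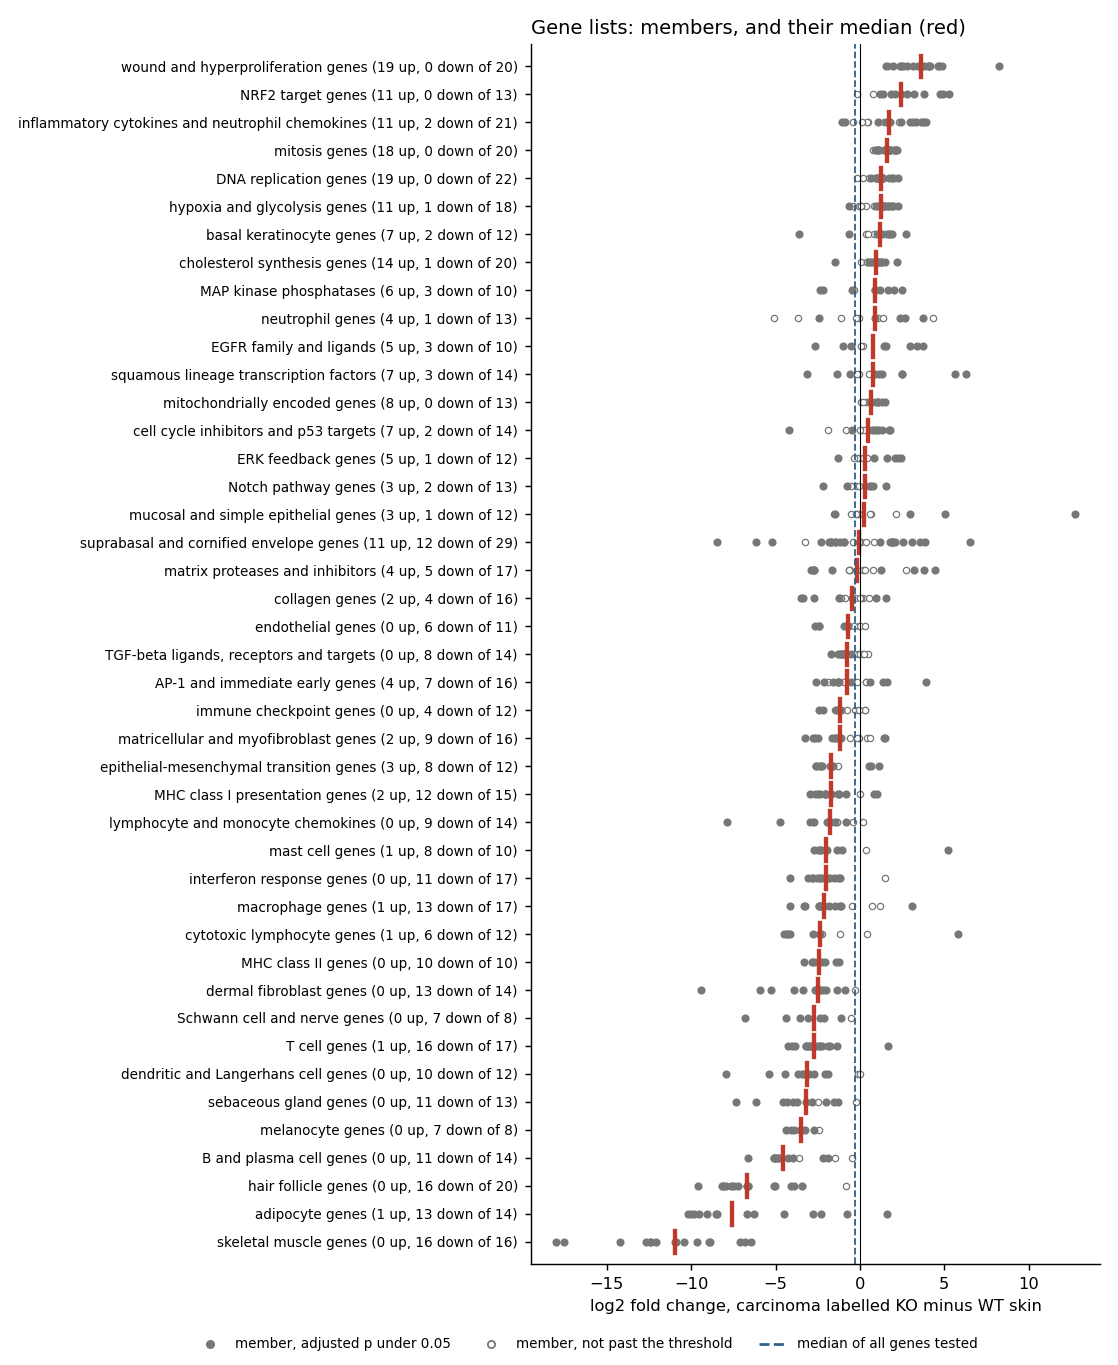
Log2 fold changes of the carcinomas labelled KO over WT skin for the members of 43 gene lists, one list per line, sorted by median. Grey filled dots passed an adjusted p of 0.05, open dots did not, red ticks are list medians and the dashed line is the median of all 22371 genes; muscle, fat and hair follicle genes lie farthest to the left and wound genes farthest to the right.

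Promoters of 4 genes that carry results are shown to give the sequence context of genes that rose. The windows run from 250 bases before to 50 bases after the start site in RefSeq (GRCm38.p6), 5′ to 3′ on the gene's strand. Capitals mark TGANTCA, a loose form of the site that AP-1 binds in which N is any base, in the first 3. In the last they mark TTTGAA, the core of the element used by cell cycle repressor complexes. The marked letters are TGACTCA in Krt13 and Mmp13 and TGAATCA in Sprr1b. Both strands were searched. Where a gene had several promoters, a window holding the motif was taken, so a match was partly selected for. Krt13 had the largest rise among genes of at least 3 in average log2 CPM, Sprr1b is an envelope gene of wounded skin, Mmp13 a collagenase and Cdk1 the kinase that starts mitosis. Their windows lie at chr11:100120528-100120827 (minus strand), chr3:92438730-92439029 (minus strand), chr9:7272264-7272563 (plus strand) and chr10:69352863-69353162 (minus strand). The Krt13 window lies within the GENCODE span of that gene, which ends at 100121566.
Krt13: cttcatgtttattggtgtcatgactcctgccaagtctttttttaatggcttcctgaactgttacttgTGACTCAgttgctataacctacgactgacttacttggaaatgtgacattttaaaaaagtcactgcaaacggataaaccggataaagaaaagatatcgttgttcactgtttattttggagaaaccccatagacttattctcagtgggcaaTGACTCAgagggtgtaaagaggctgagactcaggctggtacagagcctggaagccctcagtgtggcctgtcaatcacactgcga
Sprr1b: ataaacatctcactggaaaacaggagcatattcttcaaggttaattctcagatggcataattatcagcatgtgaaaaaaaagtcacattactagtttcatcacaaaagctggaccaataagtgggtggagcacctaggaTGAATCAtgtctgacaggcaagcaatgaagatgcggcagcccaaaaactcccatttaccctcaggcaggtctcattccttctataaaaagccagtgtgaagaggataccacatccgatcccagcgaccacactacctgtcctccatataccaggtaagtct
Mmp13: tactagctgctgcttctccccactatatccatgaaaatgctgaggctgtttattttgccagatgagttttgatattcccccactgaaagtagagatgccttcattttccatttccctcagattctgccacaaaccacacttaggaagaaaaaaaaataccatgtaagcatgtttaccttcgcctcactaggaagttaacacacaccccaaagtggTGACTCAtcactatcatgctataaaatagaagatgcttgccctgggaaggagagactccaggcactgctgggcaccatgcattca
Cdk1: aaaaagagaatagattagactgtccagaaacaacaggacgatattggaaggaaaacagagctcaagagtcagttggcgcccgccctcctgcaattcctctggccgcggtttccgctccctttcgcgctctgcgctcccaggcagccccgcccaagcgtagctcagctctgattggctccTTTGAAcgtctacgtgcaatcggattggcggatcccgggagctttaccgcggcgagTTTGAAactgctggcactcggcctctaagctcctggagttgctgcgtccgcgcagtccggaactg
The matches in Krt13 began 183 and 34 bases before the start site, that in Sprr1b 111 and that in Mmp13 35, and those in Cdk1 71 and 15. TGANTCA was present in 7.81% of all 32851 promoters and in 6.32% of those of tested genes. It was present in 8 of 15 promoters of 13 matrix protease and inhibitor genes. Among 16 promoters of 15 wound genes 7 held it, both Serpinb2 promoters included. Krt6a, Krt6b, Krt16, Krt17 and Il1f6 of the wound list had no promoter in the set. No promoter of the mitosis genes or of the AP-1 genes held it. TTTGAA was present in 17.9% of all promoters and in 13.6% of those of tested genes. It was present in 11 of 16 promoters of the mitosis genes and in 3 of 21 of the DNA replication genes. Among proteases with TGANTCA in a promoter, Mmp3 fell by 2.71 on the log2 scale while Mmp10 rose by 3.82 and Mmp13 by 3.21. A match describes these letters only and does not show that a factor bound there.

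The keratins of the epidermis moved in both directions. Krt14, the keratin of the basal layer, was at 6173, 8051 and 3169 CPM in the skin and at 40056 and 37223 CPM in the carcinomas. It rose by 2.74 ± 0.34 on the log2 scale (adjusted p = 1.3e-04), with no overlap between the groups. Its partner Krt5 was at 3812, 4567 and 2271 CPM and 7643 and 6657 CPM and rose by 1.01 ± 0.26 (adjusted p = 0.0083), a call that was lost without KO SCC replicate 1 (adjusted p = 0.066) and with total counts as library sizes (0.14). Krt15, a basal keratin of resting epidermis and of the hair follicle bulge, went the other way. It was at 857, 770.3 and 665 CPM in the skin and at 64.7 and 60.2 CPM in the carcinomas, a log2 fold change of -3.61 ± 0.20 (adjusted p = 2.2e-06). In the basal list 7 of 12 genes rose and 2 fell, with a median of 1.17. The rises included the integrin genes Itga6 at 1.77, Itga3 at 1.91 and Itgb4 at 1.34, which anchor the cell to the basement membrane. Trp63, the master transcription factor of the stratified epithelium, had a log2 fold change of 0.46 ± 0.21 and did not pass (adjusted p = 0.097). The second fall, that of Dst, was lost with RLE factors, without a filter on low counts and with these groups alone in the model. It was also lost with replicate number or Y-linked counts in the model and without skin replicate 2 or either carcinoma. With total counts as library sizes 4 genes rose.

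Suprabasal and envelope genes split. Of 29 tested, 11 rose and 12 fell, with a median of -0.08 that turned to 0.21 without skin replicate 1, 0.05 without a filter on low counts and 0.04 with these groups alone in the model. Krt10, the keratin that replaces the basal keratins as cells differentiate, was at 1763, 2108 and 996 CPM in the skin and 226 and 422 CPM in the carcinomas, and fell by 2.32 ± 0.35 (adjusted p = 3.4e-04). Flg, the precursor of filaggrin, which bundles keratin in the outer layers, was at 175, 128 and 265 CPM and 80.7 and 83.4 CPM and fell by 1.21 ± 0.28 (adjusted p = 0.0046). For both genes the carcinomas lay under every skin library. Krt1, the partner of Krt10, also fell (-1.39 ± 0.40, adjusted p = 0.016). The call was lost with these groups alone in the model (adjusted p = 0.075). It was also lost without KO SCC replicate 1, where the log2 fold change was -1.21. The envelope proteins loricrin and involucrin did not pass: Lor had a log2 fold change of 0.36 ± 0.33 and Ivl of 0.85 ± 0.33.

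Several genes of envelope assembly and shedding rose. Tgm1, the membrane-bound transglutaminase that crosslinks it, was at 60.3, 58.2 and 62.2 CPM in the skin and 502 and 509 CPM in the carcinomas, a narrow spread within each group. It rose by 3.07 ± 0.21 (adjusted p = 5.5e-06). Tgm3, the soluble transglutaminase, went from 7.87, 43.1 and 20.1 CPM to 1617 and 2752 CPM and rose by 6.53 ± 0.64 (adjusted p = 3.1e-05), or by 7.26 without skin replicate 2. Spink5, which encodes the inhibitor of the proteases that shed the outer layer, was at 452, 301 and 254 CPM and 2775 and 5086 CPM, a rise of 3.55 ± 0.34 (adjusted p = 2.7e-05). Cdsn, the adhesive protein that those proteases cut, rose by 1.94 ± 0.24. The lipid-barrier gene Alox12b rose by 3.86 ± 0.41, while Flg2, a filaggrin relative, fell by 5.18 ± 0.52.

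Wound and hyperproliferation genes rose nearly as a block. Of 20, 19 rose and none fell, and the median was 3.63. Krt6a, a keratin made when epidermis is wounded, was at 699, 1128 and 360.3 CPM in the skin and 13262 and 11618 CPM in the carcinomas, a rise of 4.09 ± 0.39 (adjusted p = 2.8e-05). Its partner Krt16 went from 1281, 1857 and 196 CPM to 15075 and 12677 CPM, a rise of 3.64 ± 0.65 (adjusted p = 0.001). Skin replicate 3 was the lowest skin library for both. Krt6a and Krt6b are near copies, so reads may have been split between them; Krt6b rose by 4.63 ± 0.64.

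Small proline-rich genes and interleukin-36 genes were part of that block. Sprr1b, whose promoter is shown above, was at 255, 151 and 32.4 CPM in the skin and 1683 and 1984 CPM in the carcinomas. It rose by 3.65 ± 0.61 (adjusted p = 6.9e-04), and by 4.31 without skin replicate 1. Il1f6, which encodes IL-36 alpha, a keratinocyte cytokine, went from 22.7, 14.4 and 17.1 CPM to 243 and 355 CPM, a rise of 4.05 ± 0.30 (adjusted p = 7.4e-06). Sprr3, an envelope gene of oral and oesophageal lining, rose by 8.23 ± 1.53 (adjusted p = 0.0014), but its skin values of 15.5, 0.604 and 0.0352 CPM set that size. The rise was 12.30 without skin replicate 1 and 7.63 without skin replicate 3. S100a8, a calcium-binding protein of inflamed epidermis and neutrophils, had 264, 329 and 38.5 CPM in the skin and 623 and 1043 CPM in the carcinomas, an adjusted p of 0.038. Without skin replicate 1 the adjusted p was 0.051. It was 0.08 with only skin and these carcinomas in the model and 0.11 with total counts as library sizes. Without KO SCC replicate 1 or 2 the call was also lost, with log2 fold changes of 2.32 and 1.57. That call therefore rests on these libraries and settings. The remaining member, S100a9, had a log2 fold change of 1.68 ± 0.77 and did not pass. With the presence of Y-linked counts as a covariate the log2 fold changes were larger for Krt16 (4.50), Krt6b (5.43), Sprr1b (4.37) and Sprr3 (9.85).

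**Figure D2:**
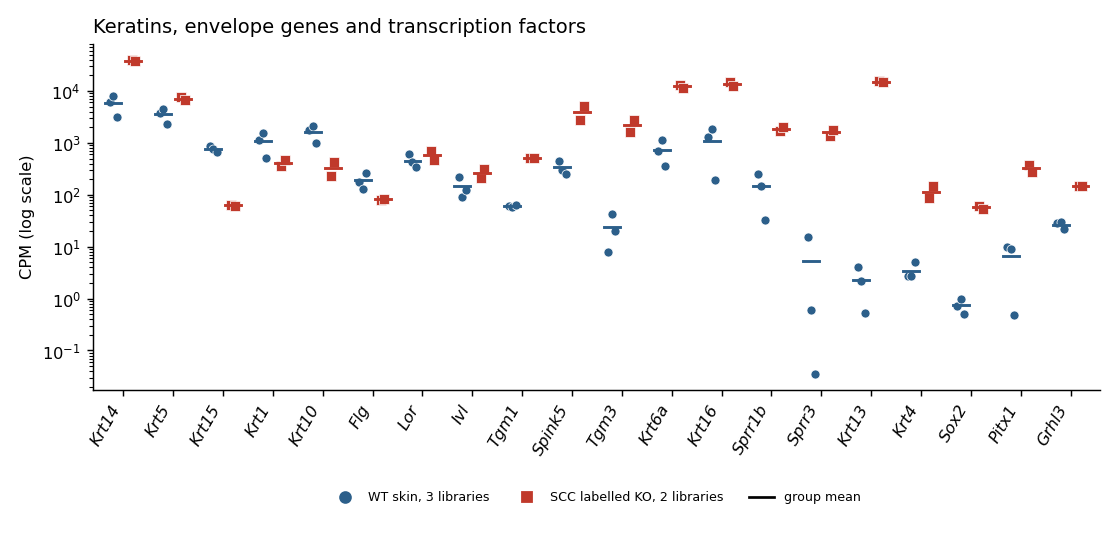
CPM on a log scale of keratins, envelope genes and epithelial transcription factors in the 3 WT skin libraries (circles) and the 2 carcinomas labelled KO (squares), with lines at the group means. Krt13 goes from 2.26 to 15181 CPM on average, while Krt15 and Krt10 lie lower in both carcinomas.

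The largest rise among genes with an average log2 CPM of at least 3 was that of a mucosal keratin. Krt13 (chromosome 11, 100117327 to 100121566, minus strand, mm10) marks the lining of mouth and oesophagus and is not a keratin of normal skin. It was at 4.07, 2.19 and 0.529 CPM in the skin and at 15387 and 14976 CPM in the carcinomas. The log2 fold change was 12.73 ± 0.86 (adjusted p = 5.2e-06), and 13.44 without skin replicate 1. Krt4, the partner of Krt13 in those linings, went from 2.78, 2.68 and 4.97 CPM to 85.8 and 145 CPM, a rise of 5.04 ± 0.60 (adjusted p = 9.4e-05). The mucosal and simple epithelial list did not move as a group: 3 of 12 rose, 1 fell and the median of 0.27 turned to -0.24 with total counts as library sizes and -0.12 without KO SCC replicate 2. Krt8, a keratin of simple epithelia, was at 1.91, 2.11 and 4.92 CPM and 1.10 and 3.0 CPM, overlapping between the groups, and did not pass (adjusted p = 0.55).

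Several transcription factors of squamous tumours rose. Sox2, a factor of embryonic and oesophageal progenitors, was at 0.720, 0.986 and 0.511 CPM in the skin and 61.3 and 52.7 CPM in the carcinomas. It rose by 6.27 ± 0.32 (adjusted p = 1.6e-06), the smallest adjusted p among the genes named by rule. Pitx1, a homeobox factor of the oral epithelium and hindlimb, was at 9.95, 9.22 and 0.476 CPM and 369 and 277 CPM, a rise of 5.63 ± 0.87 (adjusted p = 4.2e-04), or 6.75 with Y-linked counts as a covariate. Grhl3, a driver of barrier formation, went from 28.1, 29.5 and 22.3 CPM to 145 and 150.1 CPM and rose by 2.47 ± 0.22 (adjusted p = 2.0e-05). Ovol1, a repressor that helps keratinocytes leave the cell cycle, rose by 2.50 ± 0.23. In contrast Gata3, a factor of hair follicle and barrier cells, fell by 3.16 ± 0.31, from 54.9, 64.5 and 83.4 CPM to 6.92 and 8.19 CPM. Of the 14 factors, 7 rose and 3 fell (1 without KO SCC replicate 1), with a median of 0.79.

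Skeletal muscle RNA was abundant in the skin libraries and close to absent in the carcinomas. All 16 muscle genes tested fell, with a median of -10.94, and their summed level was 8415, 10962 and 8393 CPM in the skin and 23.1 and 13.5 CPM in the carcinomas. Myh4, the fast myosin heavy chain, was at 1024, 406 and 879 CPM in the skin with 0 counts in both carcinomas. With a floor of 3 counts per library that is at least 8900-fold lower. Pvalb, the calcium buffer of fast fibres, was likewise at 0 in both and at least 6600-fold lower. With both genes at these bounds the median of the list stayed at -10.94. Tnnt3, fast troponin T, was at 1235, 1630.4 and 1143 CPM in the skin and 0.0865 and 0.0497 CPM in the carcinomas, near the level of single counts, and fell (adjusted p = 1.4e-04). Muscle genes made up all 10 of the largest falls among genes with an average log2 CPM of at least 3.

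Fat and gland genes fell as well. Of 14 adipocyte genes 13 fell, with a median of -7.58 that was -6.92 without KO SCC replicate 1 and -8.83 without replicate 2. Slc2a4, the glucose carrier that responds to insulin in fat and muscle, was at 47.5, 50.7 and 40.7 CPM in the skin and 6.12 and 7.22 CPM in the carcinomas, and fell by 2.79 ± 0.22 (adjusted p = 1.2e-05). Lipe, the hormone-sensitive lipase, fell by 2.32 ± 0.30, from 115, 80.6 and 102 CPM to 22.2 and 17.5 CPM. Fabp4, a fatty acid carrier of adipocytes that endothelial cells and macrophages also make, was the exception. It was at 1100.1, 968 and 1082 CPM in the skin and 3153 and 3383 CPM in the carcinomas, and rose by 1.64 ± 0.40 (adjusted p = 0.0067). The summed adipocyte level, which Fabp4 led in the carcinomas, was 6316, 4579.5 and 5907 CPM in the skin and 3208 and 3448 CPM in the carcinomas.

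Of 13 sebaceous genes 11 fell, with a median of -3.22 that was -2.26 without KO SCC replicate 1 and -6.29 without replicate 2. Scd3, a desaturase of the sebaceous gland, was at 242, 142 and 51.6 CPM in the skin and 0.721 and 1.02 CPM in the carcinomas, a log2 fold change of -7.37 ± 0.74 (adjusted p = 3.6e-05). Krt79, a keratin of the gland's duct, fell by 2.03 ± 0.28, from 961, 893 and 849.9 CPM to 173 and 270.2 CPM (adjusted p = 2.4e-04). For both genes the carcinomas lay under every skin library.

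Hair follicle genes were low in the carcinomas, but the skin libraries disagreed with each other. Their summed level was 94.5, 2122 and 13659.5 CPM in the skin and 47.4 and 80.4 CPM in the carcinomas, so skin replicate 1 lay closer to the carcinomas than to skin replicate 3. Of 20 genes 16 fell, with a median of -6.69, but only 4 did so without KO SCC replicate 1 and 4 without replicate 2. The median was -7.29 without skin replicate 1, -4.33 without skin replicate 3, -6.06 without KO SCC replicate 1 and -8.44 without KO SCC replicate 2; it was -5.40 with Y-linked counts as a covariate. Krt71, a keratin of the inner root sheath, had 7.72, 659 and 4265 CPM in the skin and 0.462 and 11.6 CPM in the carcinomas, which overlapped. Its adjusted p of 0.04 became 0.051 without skin replicate 2 and 0.065 without skin replicate 3. It was 0.072 with only skin and these carcinomas in the model, 0.11 with replicate number in the model and 0.081 with Y-linked counts as a covariate. The call was also lost without either carcinoma. Its log2 fold change of -8.08 was -5.77 without skin replicate 3, -8.68 without skin replicate 1, -7.15 without KO SCC replicate 1 and -11.79 without KO SCC replicate 2. Lgr5, a marker of follicle stem cells, did not depend on 1 library. It was at 29.9, 20.7 and 31.5 CPM and 1.82 and 1.89 CPM and fell by 3.88 ± 0.44 (adjusted p = 7.2e-05).

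Nerve and pigment cell genes were low too. Of 8 Schwann cell and nerve genes 7 fell, with a median of -2.71; Mbp, a myelin protein, went from 136, 105 and 80.7 CPM to 20.6 and 29.1 CPM, a log2 fold change of -2.11 ± 0.23 (adjusted p = 5.5e-05). Of 8 melanocyte genes 7 fell, 3 without skin replicate 3, 4 without KO SCC replicate 1 and 3 without replicate 2. Sox10, a factor shared by melanocytes and Schwann cells, was at 10.7, 9.66 and 7.26 CPM in the skin and 0.433 and 0.447 CPM in the carcinomas, a log2 fold change of -4.38 ± 0.37 (adjusted p = 1.5e-05).

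**Figure D3:**
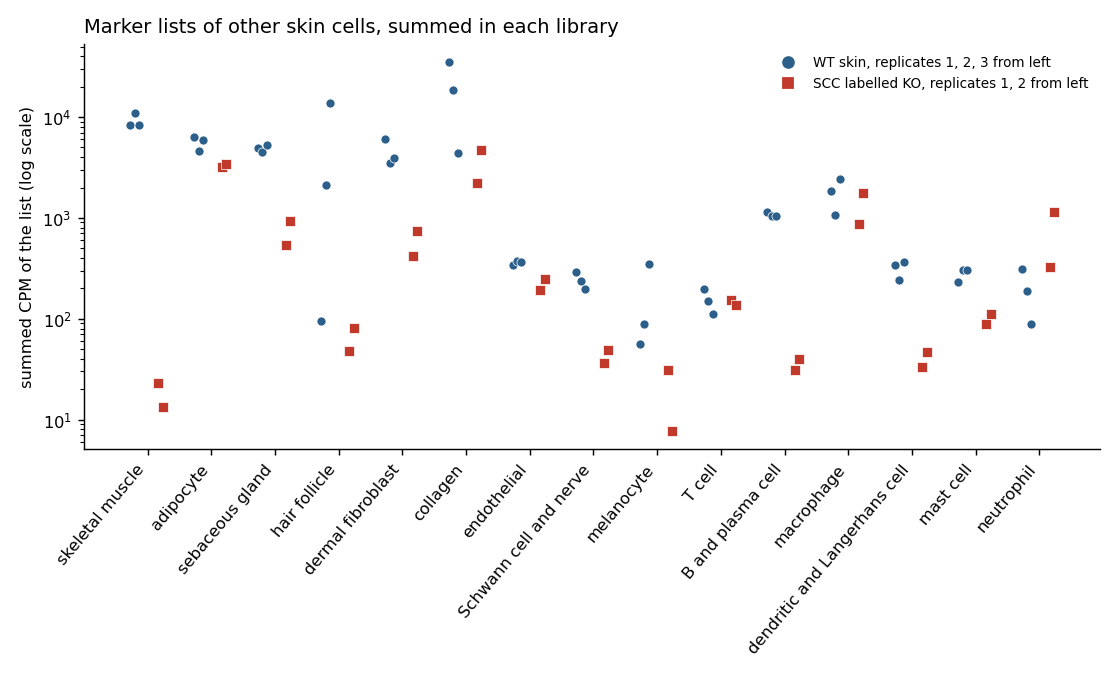
Summed CPM, on a log scale, of marker lists of other skin cells in each WT skin library (circles) and each carcinoma labelled KO (squares). Skeletal muscle falls from 8393 CPM or more in the skin to 23.1 CPM or less, hair follicle and collagen genes spread widely within the skin, and neutrophil genes are highest in KO SCC replicate 2.

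Dermal fibroblast genes were low in the carcinomas. Of 14 fibroblast genes 13 fell, with a median of -2.47. Pdgfra, the growth factor receptor that marks dermal fibroblasts, was at 62.4, 56.5 and 79.6 CPM in the skin and 9.29 and 13 CPM in the carcinomas, and fell by 2.57 ± 0.32 (adjusted p = 1.1e-04). Dcn, the collagen-binding proteoglycan decorin, fell from 2890.4, 1619 and 1328 CPM to 19.2 and 80.9 CPM. Its log2 fold change of -5.28 ± 0.77 became -4.58 without KO SCC replicate 1 and -6.66 without replicate 2.

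Collagen genes gave no such uniform result. Their summed level was 34778, 18513 and 4374 CPM in the skin and 2213 and 4680.4 CPM in the carcinomas, so skin replicate 3 lay below KO SCC replicate 2. Of 16 genes 4 fell and 2 rose, with none falling without KO SCC replicate 1, 7 without replicate 2 and 8 with total counts as library sizes. Col1a1, the main fibrillar collagen, was at 7889, 4437 and 415 CPM in the skin and 206 and 610.3 CPM in the carcinomas. The call of its fall (adjusted p = 0.016) was lost with only skin and these carcinomas in the model (adjusted p = 0.076) and without KO SCC replicate 1. Its log2 fold change of -3.38 was -2.58 without skin replicate 1, -2.79 without KO SCC replicate 1 and -4.36 without replicate 2. With Y-linked counts as a covariate it was -2.29. Col8a1, a short-chain collagen of vessels and wounds, rose by 1.54 ± 0.27 (adjusted p = 9.4e-04), from 6.06, 9.0 and 5.60 CPM to 20.7 and 19.2 CPM.

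Among matricellular and myofibroblast genes 9 of 16 fell (4 without KO SCC replicate 1) and 2 rose. Acta2, smooth muscle actin, was at 222, 208 and 253 CPM in the skin and 75.8 and 68.3 CPM in the carcinomas, a log2 fold change of -1.66 ± 0.30 (adjusted p = 0.0011). Postn and Tnc, matrix proteins of tumour stroma, did not pass, at 0.45 ± 0.34 and 0.59 ± 0.29.

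Matrix proteases moved in both directions. Of 17 proteases and inhibitors 4 rose and 5 fell, and the median of -0.18 turned to 0.23 without KO SCC replicate 1 and 0.14 without a filter on low counts. Mmp13, the collagenase whose promoter is shown above, was at 5.21, 10.9 and 1.92 CPM in the skin and 44.8 and 66 CPM in the carcinomas. It rose by 3.21 ± 0.67 (adjusted p = 0.0028), or by 3.95 without skin replicate 2. Mmp2, a gelatinase of stromal cells, fell by 2.92 ± 0.54, from 855, 519 and 223 CPM to 53.5 and 86.9 CPM (adjusted p = 0.0014). Its partner and inhibitor Timp2 fell by 2.73 ± 0.38.

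Most mesenchymal genes fell. Of 12 genes of the epithelial-mesenchymal transition 8 fell and 3 rose. Vim, the intermediate filament of mesenchymal cells, was at 1129, 792 and 804 CPM in the skin and 159 and 229 CPM in the carcinomas, and fell by 2.23 ± 0.30 (adjusted p = 1.8e-04). Zeb2 and Prrx1, transcription factors of mesenchymal cells, fell by 2.60 and 2.61. The fibroblast markers fell in the same libraries, as given above, and their part in these falls was not tested. The 3 rises, of Cdh1, Cdh3 and Snai2, were lost without KO SCC replicate 1 (none left), and 1 was left without replicate 2. With total counts as library sizes none rose.

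TGF-beta restrains the growth of keratinocytes and drives matrix synthesis. Of 14 ligands, receptors and targets 8 fell and none rose, with a median of -0.74. With only skin and these carcinomas in the model, 3 fell. Without KO SCC replicate 1, 2 fell, without replicate 2, 5 fell, and without skin replicate 2, 1 rose. Tgfbr2, the receptor that binds the ligand, was at 191, 162 and 203 CPM in the skin and 86.1 and 78.8 CPM in the carcinomas, a log2 fold change of -1.17 ± 0.15 (adjusted p = 1.7e-04). Ltbp2, a matrix protein related to the binders of latent TGF-beta, fell by 1.14 ± 0.23 (adjusted p = 0.0022). Tgfb1, the main ligand, was at 30.4, 25.1 and 28.3 CPM and 29.3 and 27.3 CPM and did not pass (adjusted p = 0.94).

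Genes of cell division rose broadly. Of 20 mitosis genes 18 rose and none fell, with a median of 1.58, and of 22 DNA replication genes 19 rose and none fell, with a median of 1.27. Cdk1, the mitotic kinase whose promoter is shown above, was at 20.1, 32.6 and 48 CPM in the skin and 162 and 119.6 CPM in the carcinomas, a rise of 2.07 ± 0.29 (adjusted p = 2.5e-04). Ccnb1, its cyclin, rose by 2.18 ± 0.32 (adjusted p = 3.0e-04), from 18.4, 36.8 and 49.8 CPM to 181 and 138 CPM. Skin replicate 3 was the highest skin library for both, and each carcinoma lay above it. Rrm1, a subunit of the enzyme that makes DNA building blocks, went from 62.8, 62.8 and 84.3 CPM to 285 and 244 CPM, a rise of 1.92 ± 0.18 (adjusted p = 2.7e-05). Ccne1, the cyclin of S-phase entry, rose by 2.24 ± 0.21 (adjusted p = 2.5e-05). Mki67, the common proliferation marker, was at 52.9, 132 and 179 CPM and 231 and 230.0 CPM; its log2 fold change of 0.92 ± 0.35 just missed the threshold (adjusted p = 0.053).

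Inhibitors of the cell cycle were mixed, with 7 of 14 rising and 2 falling. Cdkn1c, which encodes the inhibitor p57, was at 13.9, 11 and 18.1 CPM in the skin and 0.865 and 0.720 CPM in the carcinomas, a log2 fold change of -4.18 ± 0.44 (adjusted p = 4.8e-05). Bax, a p53 target that promotes cell death, rose by 1.09 ± 0.15 (adjusted p = 2.2e-04). Falls numbered 1 without skin replicate 2 or KO SCC replicate 2 and 4 without skin replicate 3. With total counts as library sizes 3 genes rose and the list's median turned from 0.48 to -0.03.

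Within the MAP kinase pathway, some phosphatase and ERK feedback genes rose, others fell or did not pass, and several immediate early genes fell. Dusp5 and Dusp7, phosphatases that act on ERK, were high in both carcinomas. Dusp7 was at 67.5, 84.8 and 59.9 CPM in the skin and 296 and 270.2 CPM in the carcinomas, a rise of 2.0 ± 0.19 (adjusted p = 2.8e-05). Dusp5 was at 26.3, 22.8 and 23.7 CPM and 77.1 and 78.3 CPM, a rise of 1.68 ± 0.13 (adjusted p = 9.3e-06). Of 10 phosphatases 6 rose and 3 fell (1 without KO SCC replicate 1; 3 rose with total counts as library sizes). Of 12 ERK feedback genes 5 rose and 1 fell (none without KO SCC replicate 1, and 4 with total counts as library sizes, which turned the median of 0.33 to -0.19). Phlda1 rose by 2.42 ± 0.15 and Ier3 by 2.27 ± 0.18, whereas Spry2 and Spry4, inhibitors upstream in the pathway, did not pass at 0.42 ± 0.23 and -0.33 ± 0.26.

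Several EGFR ligand genes rose. Hbegf, a ligand released from the cell surface, was at 34.6, 16.2 and 14.8 CPM in the skin and 218 and 231 CPM in the carcinomas, a rise of 3.36 ± 0.31 (adjusted p = 2.2e-05). Areg, amphiregulin, went from 5.91, 5.13 and 12 CPM to 71.1 and 50.6 CPM, a rise of 2.98 ± 0.32 (adjusted p = 5.3e-05). Egfr was at 87.4, 86.7 and 117 CPM and 62.7 and 71.2 CPM, a log2 fold change of -0.54 ± 0.16 (adjusted p = 0.018). The call was lost without skin replicate 3 (0.051) and with only skin and these carcinomas in the model (0.12). It was lost with replicate number in the model (0.0565) and without a filter on low counts (0.13). Without KO SCC replicate 1 it was lost too, at -0.445. Of 10 receptors and ligands 5 rose, the ligand genes Areg, Epgn, Ereg, Hbegf and Tgfa, and 3 fell (1 without KO SCC replicate 1), Egfr and the ligand genes Btc and Egf.

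Among AP-1 and immediate early genes 4 of 16 rose and 7 fell (4 without KO SCC replicate 2). Fosl1, the Fos family member typical of squamous tumours, was at 1.84, 2.27 and 1.80 CPM in the skin and 31.2 and 27.9 CPM in the carcinomas, a rise of 3.91 ± 0.22 (adjusted p = 2.4e-06). Junb rose by 1.39 ± 0.22 and Jund fell by 1.29 ± 0.18. Egr3, an immediate early factor, fell from 44, 47.8 and 83.4 CPM to 11.6 and 14.6 CPM. Fos itself fell (adjusted p = 0.012), a call lost with only skin and these carcinomas in the model (0.066). It was also lost without KO SCC replicate 2, where the log2 fold change of -1.21 was -1.05. The call of Egr1 (adjusted p = 0.0041) was lost without that library too, where its log2 fold change of -1.31 was -1.01. Of 13 Notch genes, which guide differentiation, 3 rose and 2 fell (1 without KO SCC replicate 1; with total counts 1 rose, 4 fell and the median of 0.32 became -0.19). Nrarp, a Notch target, rose by 1.56 ± 0.18 (adjusted p = 7.5e-05).

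**Figure D4:**
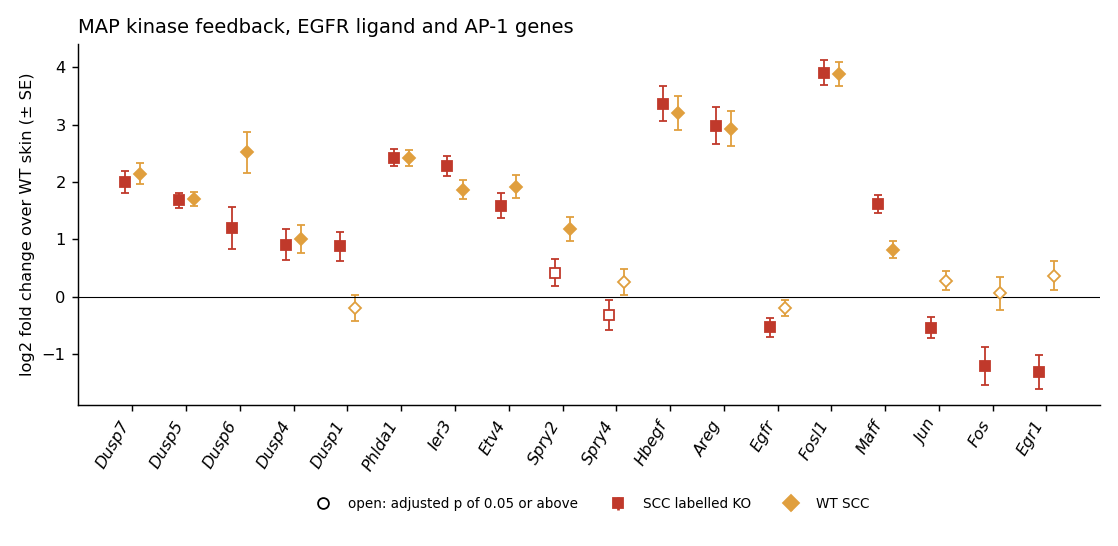
Log2 fold change over WT skin (± SE) of phosphatase, ERK feedback, EGFR ligand and AP-1 genes in the carcinomas labelled KO (squares) and, from the same model, in WT SCC (diamonds), where 40.5% of all genes passed; open symbols did not pass an adjusted p of 0.05. Fosl1 and the EGFR ligands lie near each other in both comparisons, which share the skin libraries, and Jun, Fos and Egr1 lie below 0 in the carcinomas labelled KO.

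Keratinocyte alarm cytokines rose. Of 21 inflammatory cytokines and neutrophil chemokines 11 rose and 2 fell, with a median of 1.71; without KO SCC replicate 2, 6 rose and none fell, and the median was 0.90. The falls numbered 1 without skin replicate 1 or KO SCC replicate 1. Il33, an alarm cytokine held in the nucleus, was at 33.8, 26 and 19.4 CPM in the skin and 225 and 252 CPM in the carcinomas, a rise of 3.17 ± 0.25 (adjusted p = 1.2e-05). Il1rn, the natural blocker of the IL-1 receptor, went from 57.6, 36.5 and 44 CPM to 645 and 527 CPM, a rise of 3.67 ± 0.26 (adjusted p = 5.8e-06). Its opponents Il1a and Il1b rose by 1.57 ± 0.32 and 1.71 ± 0.36. Cxcl1, a neutrophil attractant, was at 4.59, 2.62 and 1.27 CPM and 63.5 and 21.6 CPM, a rise of 3.93 ± 0.59 (adjusted p = 3.6e-04), or 2.96 without KO SCC replicate 1.

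Neutrophil genes were uneven. Cxcr2, the receptor for these chemokines, was at 7.62, 4.07 and 3.01 CPM in the skin and 22.9 and 27.2 CPM in the carcinomas, a rise of 2.36 ± 0.32 (adjusted p = 1.8e-04). Of 13 neutrophil genes 4 rose and 1 fell (2 without skin replicate 3). Ltf, the iron-binding granule protein lactoferrin, was at 71, 0.161 and 0.123 CPM in the skin and 2.13 and 944 CPM in the carcinomas, a log2 fold change of 4.32 ± 2.10 that did not pass (adjusted p = 0.12). KO SCC replicate 2 was the highest library for it and skin replicate 1 the next.

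Lymphocyte genes fell. Of 17 T cell genes 16 fell, with a median of -2.73. Cd3e, a signalling chain of the T cell receptor, was at 8.64, 5.21 and 2.36 CPM in the skin and 0.663 and 0.497 CPM in the carcinomas, a log2 fold change of -3.21 ± 0.59 (adjusted p = 0.0013). Cd8a, the coreceptor of cytotoxic T cells, went from 6.48, 4.55 and 3.08 CPM to 0.404 and 0.248 CPM, a log2 fold change of -3.84 ± 0.63 (adjusted p = 6.3e-04). Trbc2, a constant segment of the receptor beta chain, was the one member that rose, from 46.1, 40.4 and 32.4 CPM to 138 and 114 CPM (1.67 ± 0.20, adjusted p = 8.9e-05), and the summed T cell level overlapped between the groups, at 196, 151 and 111 CPM in the skin and 152 and 138 CPM in the carcinomas. Its near copy Trbc1 fell by 2.95 ± 0.36, so reads may have been split between them.

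Of 12 cytotoxic lymphocyte genes 6 fell, among them Gzmc, a granzyme, by 4.25 ± 0.30 (adjusted p = 6.4e-06). Eomes, a T-box factor of cytotoxic lymphocytes, rose from 0.149, 0.463 and 0.229 CPM to 8.37 and 23.8 CPM. Its log2 fold change was 5.81 ± 0.62 (adjusted p = 5.1e-05), and 4.88 without KO SCC replicate 2. Of 12 checkpoint genes 4 fell, among them Vsir, which encodes the inhibitory receptor VISTA, by 2.42 ± 0.29 (adjusted p = 8.8e-05).

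Among the immune cell lists, B and plasma cell genes had the lowest median. Of 14 B and plasma cell genes 11 fell (7 without KO SCC replicate 2), with a median of -4.53 that was -3.77 without skin replicate 3 and -3.75 without KO SCC replicate 2. Their summed level was 1132, 1036 and 1044 CPM in the skin and 31.2 and 39.5 CPM in the carcinomas. Igkc, the kappa light chain, was at 299, 326 and 426 CPM in the skin and 8.89 and 11.6 CPM in the carcinomas, a log2 fold change of -5.09 ± 0.63 (adjusted p = 1.2e-04). Jchain, which joins secreted IgA and IgM, fell by 5.06 ± 0.79 (adjusted p = 4.5e-04). Antibody genes have near copies, so single values are uncertain.

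Myeloid and mast cell genes fell with few exceptions. Csf1r, the receptor macrophages need to survive, was at 159.8, 101 and 148 CPM in the skin and 22.9 and 31 CPM in the carcinomas, a log2 fold change of -2.34 ± 0.24 (adjusted p = 4.1e-05). Of 17 macrophage genes 13 fell and 1 rose (2 without skin replicate 1). The rise was Arg1, the arginine-degrading enzyme of myeloid cells and keratinocytes, from 206, 68.7 and 48.4 CPM to 497 and 1317 CPM. Its log2 fold change of 3.08 ± 0.54 was 3.94 without skin replicate 1 and 2.22 without KO SCC replicate 2. Of 12 dendritic and Langerhans cell genes 10 fell, including Cd207, the Langerhans cell lectin, by 1.88 ± 0.36 (adjusted p = 0.0015). Of 10 mast cell genes 8 fell (5 without KO SCC replicate 1), including Mcpt4, a mast cell protease, by 2.69 ± 0.33. Tpsab1, a tryptase, rose instead, from 0.422, 2.01 and 0.0529 CPM to 33.4 and 28.8 CPM; its log2 fold change of 5.23 ± 0.84 was 7.12 without skin replicate 2 and 5.83 with Y-linked counts as a covariate.

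Antigen presentation genes fell in both classes. MHC class I shows peptides to CD8 T cells and class II to CD4 T cells. Of 15 class I presentation genes 12 fell and 2 rose, with a median of -1.70. B2m, the shared light chain, was at 1919, 1419 and 1695 CPM in the skin and 538 and 499.5 CPM in the carcinomas, a log2 fold change of -1.69 ± 0.21 (adjusted p = 1.0e-04). Psmb8, an immunoproteasome subunit, fell by 2.67 ± 0.20 (adjusted p = 8.7e-06), from 96.9, 71.3 and 80.8 CPM to 10.8 and 15.2 CPM. The rises, Calr and Pdia3, encode chaperones of the endoplasmic reticulum and were lost with total counts as library sizes. All 10 class II genes fell; Cd74, the class II invariant chain, went from 1705, 1003 and 1365 CPM to 147 and 225 CPM, a log2 fold change of -2.87 ± 0.31 (adjusted p = 5.5e-05). T cell, B cell, dendritic and macrophage genes fell in the same libraries, and their part in these falls was not tested.

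Interferon and lymphocyte-attracting genes followed the same direction. Of 17 interferon response genes 11 fell and none rose, with a median of -1.99; without KO SCC replicate 1, 7 fell, and without skin replicate 3, 1 rose. Without KO SCC replicate 2 the median was -2.89. Stat2, a transcription factor of the type I interferon response, was at 30.7, 32 and 32.9 CPM in the skin and 10.7 and 11 CPM in the carcinomas, and fell by 1.55 ± 0.19 (adjusted p = 9.5e-05). Of 14 lymphocyte and monocyte chemokines 9 fell (4 without KO SCC replicate 1). Cxcl12, made by stromal cells, went from 137, 141 and 282 CPM to 5.97 and 7.97 CPM, a log2 fold change of -4.74 ± 0.61 (adjusted p = 1.5e-04). Of 11 endothelial genes 6 fell (3 without KO SCC replicate 1); Lyve1, a lymphatic marker, fell by 2.65 ± 0.43, while Cdh5, the endothelial cadherin, did not pass at -0.08 ± 0.25.

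**Figure D5:**
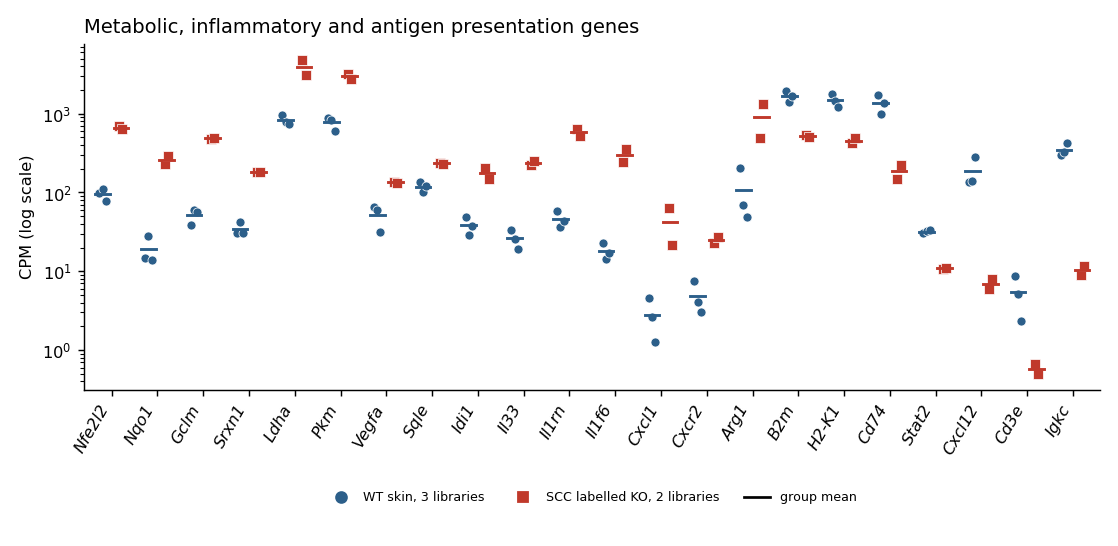
CPM on a log scale of metabolic, cytokine and antigen presentation genes in the 3 WT skin libraries (circles) and the 2 carcinomas labelled KO (squares), with lines at the group means. NRF2 targets, glycolytic genes and alarm cytokines lie higher in both carcinomas, and B2m, Cd74, Stat2, Cxcl12, Cd3e and Igkc lie lower.

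Genes of the oxidative stress response rose strongly. NRF2, encoded by Nfe2l2, switches on genes for glutathione and quinone metabolism. Of 13 targets 11 rose and none fell (1 fell with total counts as library sizes), with a median of 2.41. Nfe2l2 was at 97.2, 111 and 78.8 CPM in the skin and 695 and 634 CPM in the carcinomas, a rise of 2.80 ± 0.16 (adjusted p = 2.8e-06). Nqo1, a quinone reductase, went from 14.7, 28 and 14.1 CPM to 232 and 289 CPM, a rise of 3.78 ± 0.38 (adjusted p = 3.5e-05). Gclm, a subunit of the enzyme that starts glutathione synthesis, went from 38.6, 59.7 and 57.1 CPM to 479 and 492 CPM, a rise of 3.23 ± 0.29 (adjusted p = 2.2e-05). Slc7a11, the cystine importer, rose most in the list, by 5.30 ± 0.40.

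Glycolysis genes rose too. Ldha, which makes lactate, was at 975, 792 and 741 CPM in the skin and 4850.2 and 3095 CPM in the carcinomas, a rise of 2.25 ± 0.21 (adjusted p = 2.4e-05). Vegfa, the vessel growth factor induced by low oxygen, rose by 1.38 ± 0.32 (adjusted p = 0.0052), with skin replicate 3 the lowest library. Of 18 hypoxia and glycolysis genes 11 rose and 1 fell, that of the glycolytic enzyme gene Aldoa. That fall was lost without skin replicate 2 or either carcinoma (none left), and 2 fell without skin replicate 3.

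Sterol genes rose in moderate steps. Of 20 cholesterol synthesis genes 14 rose and 1 fell, with a median of 0.98; without KO SCC replicate 1, 9 rose, and with total counts as library sizes 8 rose. Sqle, squalene epoxidase, was at 134, 102 and 121 CPM in the skin and 239.9 and 233 CPM in the carcinomas, a rise of 0.99 ± 0.16 (adjusted p = 5.0e-04). Idi1, which isomerizes an early building block, went from 48.3, 28.7 and 37.6 CPM to 207 and 148 CPM, a rise of 2.22 ± 0.26 (adjusted p = 9.4e-05). Of 13 mitochondrially encoded genes 8 rose, a count that was 4 or 5 without skin replicate 1 or 2, 3 and 4 without KO SCC replicate 1 or 2 and 1 with total counts. mt-Nd1, a subunit of respiratory complex I, rose by 1.10 ± 0.21 (adjusted p = 0.0015).

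To see which changes differed from those of carcinomas labelled WT, the direct test of KO SCC against WT SCC in the same model was used. It called 1760 genes (7.87%), 1003 higher (4.48%) and 757 lower (3.38%), and the count fell to between 302 and 974 when 1 library was left out. Among genes named by rule and called against the skin in the carcinomas labelled KO, 43 of those reported here differed between the carcinomas. Of these differences, 7 kept their call without each KO SCC and WT SCC library in turn and under every other alternative. They were Krt15, Krt4, Il33, Spink5, Il1f6, Eomes and Ltbp2. How many of all 1760 calls did so was not counted. Without WT SCC replicate 2 alone, 24.5% of all 1760 calls were kept. The 2 comparisons with the skin share its libraries and are given side by side only.

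Il33 had a log2 fold change over skin of 3.17 in the carcinomas labelled KO and 0.36 in WT SCC, a difference of 2.82 ± 0.25 (adjusted p = 2.8e-04). Spink5 had 3.55 and 0.38, a difference of 3.17 ± 0.33 (adjusted p = 7.6e-04). For Il1f6 the values were 4.05 and 0.86, a difference of 3.20 ± 0.29 (adjusted p = 2.8e-04). Krt4 differed by 3.43 ± 0.56 (adjusted p = 0.0065) and Eomes by 5.38 ± 0.61 (adjusted p = 0.0011), both higher in the carcinomas labelled KO. The rise of Krt4 was not particular to these carcinomas. Its log2 fold change over skin was 5.04 there and 5.72 in the papillomas labelled KO. Krt15 had -3.61 in the carcinomas labelled KO and -2.37 in WT SCC, a difference of -1.25 ± 0.17 (adjusted p = 0.0031). Ltbp2 had -1.14 in the carcinomas labelled KO and 0.67 in WT SCC, a difference of -1.81 ± 0.23 (adjusted p = 0.002), so it fell against the skin in the carcinomas labelled KO and rose in WT SCC.

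Serpinb2, a protease inhibitor of stressed keratinocytes, and the tryptase gene Tpsab1 also differed with a call that held in every setting. Serpinb2 rose by 2.82 ± 0.25 over the skin in the carcinomas labelled KO and had -1.50 in WT SCC, a difference of 4.32 ± 0.27 (adjusted p = 1.6e-05). Tpsab1 differed by 5.90 ± 0.88 (adjusted p = 0.0042), Ovol1 by 1.85 ± 0.23 and Cdsn by 2.07 ± 0.24. In contrast Fosl1 (3.91 and 3.89), Phlda1 (2.42 and 2.42) and Hbegf (3.36 and 3.21) had close values in both carcinoma groups. Their differences were 0.02 ± 0.20, 0.01 ± 0.15 and 0.16 ± 0.30 (SE) and did not pass, which does not show that the groups are alike.

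Papillomas labelled KO are benign lesions with the same genotype label. The direct test of the carcinomas against them called 64 genes (0.286%), 11 higher (0.0492%) and 53 lower (0.237%) in the carcinomas. DESeq2 called 961. Without KO SCC replicate 1 the edgeR count was 0, with 1288 genes at an unadjusted p under 0.05, and without papilloma replicate 3 it was 0, with 2560 such genes. It was 7 without KO SCC replicate 2 and 12 without papilloma replicate 1. For Krt13 the log2 fold changes over skin were 12.73 in the carcinomas and 11.61 in the papillomas, and for Tgm1 3.07 and 2.82. Krt10 had -2.32 in the carcinomas and 0.58 in the papillomas, a difference of -2.91 ± 0.36 (adjusted p = 0.02), and Flg had -1.21 and 1.61, a difference of -2.81 ± 0.30 (adjusted p = 0.016), both among the calls lost when 1 of those libraries was left out.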

How the data were processed

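Messenger RNA of mouse skin and tumours, taken from whole frozen sections, was sequenced with a stranded kit. The authors deposited 1 table of whole-number counts per gene for the 11 mouse libraries, and the submitters' processing notes name HISAT2, StringTie and DESeq with the builds mm10 and hg38. The annotation, counting rule and strand setting (not given in the sources used here) leave values of near-copy families (Krt6, Sprr, Lce, MHC and antibody genes) and of overlapping or antisense genes uncertain. The human cell line table of the series was not used.

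Features without a gene name (1456 of 55988, 0.115% to 0.496% of counts) were left out. All 11 libraries in 4 groups were fitted with edgeR 4.0.16 in R 4.3.3 (limma 3.58.1): filterByExpr, TMM normalization, quasi-likelihood test, Benjamini-Hochberg adjustment over 22371 tested genes, threshold 0.05. CPM per library and log2 fold changes both use the TMM-scaled library sizes, with a prior count of 0.125 for the fold changes. The SE is the log2 fold change divided by the square root of the test's F. Counting error and floors (3 counts per library) cover sampling only. On simulated counts with 200 changed genes among 22371, the test found 11% of 2-fold and 50% of 4-fold changes, with 5 false calls (7.58% of calls). Far more genes were called in the data, so these shares do not give the power of the comparison with the skin. Within each group, every pair of libraries differed by more than sampling noise, so none was treated as 1 library deposited more than once; this does not show that they came from separate animals.

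Named by rule were Dusp1, the 10 largest rises and 10 largest falls (adjusted p under 0.05, average log2 CPM of at least 3, CPM of the groups not overlapping), fixed key genes of 43 gene lists and the 2 members of each list with the smallest p. Genes named from outside this rule, such as Slc7a11, Serpinb2, Ovol1, Tpsab1, Cdsn, Cdk1, Egr3, Gata3 and Ltf, were chosen after their values were seen. Results of 2 genes that the rule names are not reported here. The comparison and the lists were chosen with earlier results of these data known. Of 644 list members 631 were tested. Alternatives were RLE factors, DESeq2 1.42.0, no filter, a replicate block, Y-linked counts as a covariate and only the groups compared. Each library of the groups compared was also left out in turn. Total counts as library sizes, and other settings for the tests against WT SCC and papillomas, were added after seeing the data. Gene positions are from GENCODE M21 (GRCm38), promoters from RefSeq.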

Additional observations from a re-analysis of the deposited data

Results flagged for a closer look

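For 43 genes named by rule, the change against WT skin differed between the carcinomas labelled KO and WT SCC by the direct edgeR test of these carcinomas against each other (adjusted p under 0.05, 7.87% of all genes). Of these differences, 7 held without each KO SCC and WT SCC library in turn and 36 were lost without at least 1 of them. The skin and papilloma libraries were not among those left out for this test. The share of all calls that held in this way was not counted. The values that follow are log2 differences, KO SCC minus WT SCC.

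Held in every alternative were Krt15 (-1.25), Krt4 (3.43), Il33 (2.82), Spink5 (3.17), Il1f6 (3.2), Eomes (5.38) and Ltbp2 (-1.81). Dusp1, the gene of the genotype label, had a difference of 1.07, with an adjusted p of 0.028 that reached 0.14 when 1 library was left out. Among keratin, envelope and other epithelial genes, the differences that were lost without at least 1 library were Krt13 (2.91), Tgm3 (3.02), Gm5478 (2.63), Gm3776 (1.94), Defb4 (2.18), Krt10 (-1.59), Sox2 (1.29), Tgm1 (1.2), Sprr2h (1.12) and Grhl3 (0.79). Among signalling, cytokine and metabolic genes they were Fos (-1.27), Jun (-0.82), Egr1 (-1.68), Maff (0.8), Il1rn (1.37), H2-Q4 (-0.84), Kif20a (0.9), Rrm1 (0.88), Cdkn1c (-1.83), Car9 (-1.72), Sqle (0.61), Idi1 (1.74), Fdft1 (1.03), Srxn1 (0.66), mt-Nd1 (1.21) and mt-Nd5 (1.42). Among stromal, immune, muscle and nerve genes they were Tnnt3 (-6.78), Pdgfra (-1.08), Igkc (-3.7), Jchain (-3.63), Acta2 (-1.48), Vsir (-1.02), Lyz2 (-1.97), Cd209a (-4.76) and Sox10 (-1.44).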

How the results depend on the processing

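Every call against WT skin that an alternative shared with the reported test kept its direction. These fits share libraries with the reported test, so a shared call could hardly reverse. Of the reported calls 74.3% were kept with total counts as library sizes and 83.3% with only the groups compared. The share kept was smaller than both without either carcinoma, which leaves 1 carcinoma in its group. Of 182 called genes among the 207 named by rule, 141 passed in every setting, 41 lost the call in at least 1 and none reversed. With total counts as library sizes, an alternative chosen after seeing the data, 2012 genes were higher and 8561 lower, 1060 were at least 2-fold higher, and Cdkn2b went from 0.08 to -0.43 (adjusted p 0.0425 by edgeR). With 1 library left out, 5884 to 9891 genes differed from skin, 2777 to 4579 higher and 3107 to 5312 lower, with 2781 to 4365 at least 2-fold lower; the lowest values were those without KO SCC replicate 1. Where a group was left with 1 library, it was assumed to vary like the others. Against WT SCC, 2778 genes differed with total counts, 3439 with DESeq2, 4164 with only the groups compared and 302 to 974 with 1 library left out. Against KO papillomas, 611 differed without a filter, 961 with DESeq2, 240 with Y-linked counts as a covariate and 0 to 84 with 1 library left out. Between skin and carcinoma libraries of the same replicate number, deviations from the group mean correlated at r of 0.081 and 0.0509. With 2 carcinomas these deviations mirror each other, so such values cannot test pairing. The column headers call the carcinomas KOSC2 and KOSC3, and pairing by those numbers was not examined. The numbers are not taken to pair libraries. The replicate block gave 8543 genes against skin, 795 against WT SCC and 1 against papillomas. At a biological coefficient of variation of 36.6% and 2 carcinomas, changes of 2-fold were mostly missed in simulated counts (11% found). Only 200 genes were changed there, against 10013 called here, and the Benjamini-Hochberg cutoff depends on that number. The 11% therefore does not give the power of this comparison. A gene that did not pass may still differ. The causes of these shifts were not tested.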

Other observations

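The genes with the largest rises included others that the lists above do not hold. Defb4, a defensin that kills microbes at epithelial surfaces, was at 4.96, 1.87 and 2.92 CPM in the skin and 165 and 172 CPM in the carcinomas. It rose by 5.70 ± 0.53 on the log2 scale (adjusted p = 2.4e-05 by edgeR). Gsta1, a glutathione transferase, was at 5.06, 7.11 and 0.828 CPM and 217 and 224 CPM, a rise of 5.68 ± 0.67 (adjusted p = 8.5e-05), or 6.34 with Y-linked counts as a covariate. Gm3776, a protein-coding gene, was at 3.13, 3.56 and 0.705 CPM and 162 and 124 CPM, a rise of 5.87 ± 0.54 (adjusted p = 2.4e-05). It lies beside Gsta1 on chromosome 9, at 78257129 to 78269166 against 78230656 to 78242684 for Gsta1. Whether reads were shared between these genes was not tested, so their rises may not be separate. The rule that named these genes required that the CPM values of the groups did not overlap. Klk14, a protease of epidermal shedding, rose by 5.76 ± 0.73, and by 7.22 without skin replicate 1. Sptssb, which helps start sphingolipid synthesis, rose by 6.56 ± 0.77, and by 7.60 without skin replicate 3.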
